A study of Mus musculus with 16 samples.

Results

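Hair keratins and keratin-associated proteins, the structural proteins of the hair shaft, were examined in ear skin of ageing mice. The genes were chosen by name: every protein-coding gene of the counts table whose symbol starts with Krtap, and the hair keratins Krt25 to Krt28, Krt31 to Krt36, Krt39, Krt40, Krt71 to Krt75 and Krt81 to Krt86 where present. This gave 78 of the 45706 genes in the table, 22 keratins and 56 Krtap genes. Of the keratins, 9 were type I hair keratins, 5 type II hair keratins, 4 type I keratins of the inner root sheath and 4 type II keratins of the inner root sheath or companion layer. They lie in clusters: 36 on chromosome 11, 24 on chromosome 16, 9 on chromosome 15, 5 on chromosome 7, and 2 each on chromosomes 1 and 10. Krt74 and Krtap19-9a are annotated as pseudogenes and were not used, and Krtap10-10 was absent from the counts. No gene carried the symbol Krt85 in the annotation used, so Krt85 is not covered.

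RNA was sequenced from ear clips of 8 males of the inbred strain C57Bl/6J, for which the labels name no treatment and no engineered allele. Each mouse was clipped at 24 months (exact ages 23.8 to 24.4 months, labelled young) and in the second ear at 30 months (29.0 to 30.1 months, labelled old), so that ear and age cannot be told apart. The 16 libraries held 22967222 to 36162431 reads counted on genes (median 28922265), of which 1353 to 19885 fell on the 78 genes. Markers of epidermis were abundant, with a mean of 4400 CPM (counted reads scaled to a common library size with TMM factors) for Krt14 and 4360 for Krt5, the keratin pair of basal keratinocytes.

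A hair is built in the follicle by matrix cells that differentiate into the shaft and into the inner root sheath that moulds it. Hair keratins of type I pair with those of type II to form filaments, and keratin-associated proteins, rich in cysteine or in glycine and tyrosine, fill the space between them and cross-link them. Follicles cycle through growth (anagen), regression and rest, and shaft and inner root sheath genes are known to be transcribed in the growth phase.

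Translated from the annotated coding sequences, the Krtap genes fell into 20 ultrahigh sulfur genes (over 30% cysteine), 15 high glycine-tyrosine genes and 21 others, called high sulfur. The high glycine-tyrosine genes held at least 35% glycine and tyrosine and were not ultrahigh sulfur. The class called high sulfur had no lower bound on cysteine, of which Krtap15 held 4.0%. Krtap3-2, the most abundant Krtap gene, encodes 99 residues with 20.2% cysteine. Krtap4-1, the ultrahigh sulfur gene of highest abundance among those with a promoter entry, has 38.5% cysteine, and Krtap8-1, the most abundant high glycine-tyrosine gene, has 47.5% glycine and tyrosine. The 150 bases before the annotated start of these genes and of Krt32, the most abundant hair keratin, are shown 5′ to 3′ from the RefSeq promoter table (GRCm38.p6), because they carry the element most members share. Capitals mark TATAAA, the core of the TATA box.

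Krtap3-2 (chr11:99556854-99557003, minus strand): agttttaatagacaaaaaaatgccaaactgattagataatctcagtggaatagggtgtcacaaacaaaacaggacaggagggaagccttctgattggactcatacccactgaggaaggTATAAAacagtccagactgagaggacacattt

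Krtap4-1 (chr11:99628240-99628389, minus strand): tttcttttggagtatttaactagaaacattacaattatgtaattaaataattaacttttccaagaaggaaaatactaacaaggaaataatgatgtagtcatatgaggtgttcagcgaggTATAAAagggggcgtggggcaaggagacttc

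Krtap8-1 (chr16:89487953-89488102, minus strand): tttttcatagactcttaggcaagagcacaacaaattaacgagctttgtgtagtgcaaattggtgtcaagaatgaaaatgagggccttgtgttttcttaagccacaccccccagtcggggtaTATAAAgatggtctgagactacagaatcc

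Krt32 (chr11:100088270-100088419, minus strand): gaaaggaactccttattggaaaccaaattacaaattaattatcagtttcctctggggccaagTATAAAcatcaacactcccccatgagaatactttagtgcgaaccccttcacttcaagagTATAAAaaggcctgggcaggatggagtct

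The first base of TATAAA stood 32 bases before the start in Krtap3-2, 31 in Krtap4-1, and 29 in Krtap8-1 and Krt32, with a further match 88 bases before the start in Krt32. A promoter entry was found for 68 of the 78 genes, and TATAAA occurred on either strand within the 250 bases before the start in 54 of them (79.4%), against 12.4% of all 32851 promoters of the table. CTTTGA, the core of the motif of LEF1 and TCF factors, occurred in 18 of the 68 (26.5%), against 13.8% of all promoters. These counts describe letters and not binding.

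The level of these genes was low for most members and differed widely between libraries. All 78 had a read in some library, but 19 in every library, and a library held reads of 35 to 76 of them. Compared per length of exon sequence, Krtap3-2 had the highest mean over the 16 libraries, with 20.6 CPM per kilobase of exon (RPKM). Krtap3-3 followed with 11.8, Krtap8-1 with 6.14, Krt25 with 5.67, Krt71 with 4.96 and Krt75 with 4.80. The order of the last of these differed by median. Krt75 had a median RPKM of 4.94 at 24 months and 4.24 at 30 months. Krt25 had 4.51 and 2.59, Krtap8-1 3.52 and 2.07, and Krt71 2.98 and 1.91. Of the type II hair keratins, the highest mean was 1.04 RPKM, in Krt86. Its median RPKM was 0.318 at 24 months, below Krt83 with 0.367, and 0.261 at 30 months, below Krt84 with 0.264.

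In most members the level moved together across libraries. The summed CPM of the 78 genes ran from 70.4 to 706 at 24 months (median 118) and from 50.2 to 263 at 30 months (median 64.2). The library of mouse 75 at 24 months was the highest of all, at 706 CPM, with 142 in the next library of that age. It held the highest value of 70 of the 78 genes, among them 64 of the 68 that passed the filter on low counts (94.1%), whereas 4.23% of all tested genes were highest there. For a tested member, the highest library exceeded the lowest by a median of 44.8-fold (0.1 CPM added to both), against 1.88-fold over all tested genes, and by more than 10-fold in 63 of the 68.

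**Figure D1:**
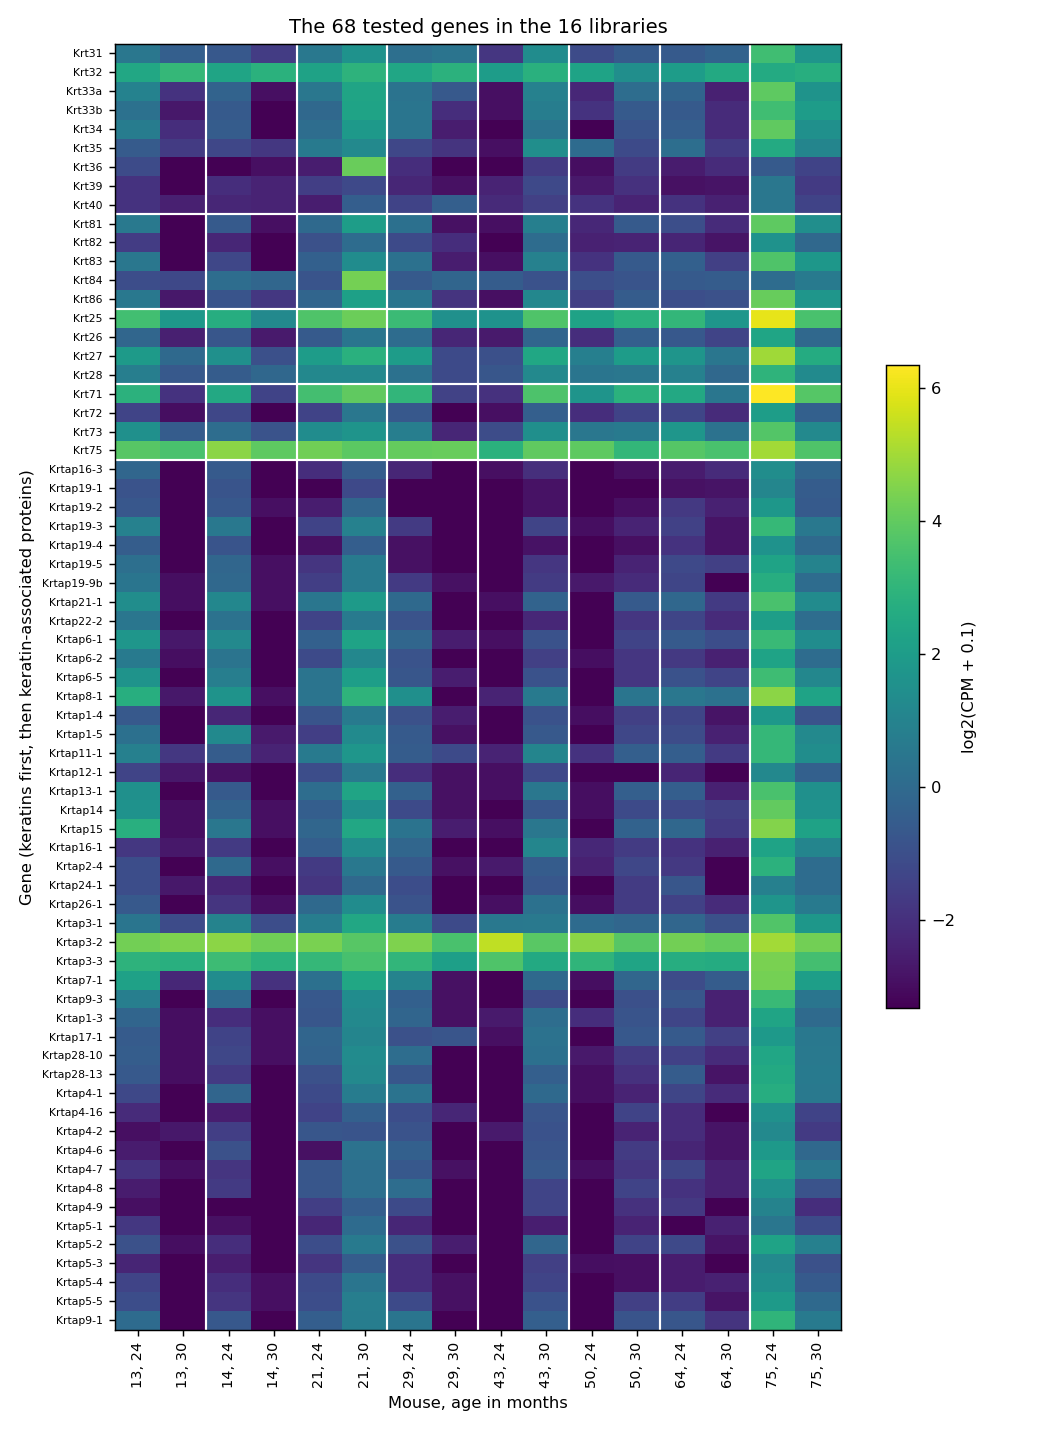
Level of the 68 tested genes (rows, log2 of CPM plus 0.1) in the 16 libraries (columns, by mouse and age in months). White lines separate mice and gene families. The column of mouse 75 at 24 months is the brightest for 64 of the 68 genes, and Krtap3-2, Krtap3-3, Krt32 and Krt75 are bright in every column.

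The question of the paired design is whether these genes differ between 24 and 30 months within a mouse. They did so in both directions. Mice 21, 43 and 50 had higher values at 30 months for 65, 65 and 59 of the 68 tested genes, with a median change of 3.38-fold, 5.65-fold and 2.25-fold. Mice 13, 14, 29, 64 and 75 had lower values for 65, 64, 60, 57 and 66 of them, with a median ratio of 0.196, 0.282, 0.243, 0.567 and 0.248. In the same pairs, 47.2% to 50.9% of all tested genes were higher at 30 months. In bulk tissue, fewer follicles of a given state and less RNA per follicle cannot be told apart.

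**Figure D2:**
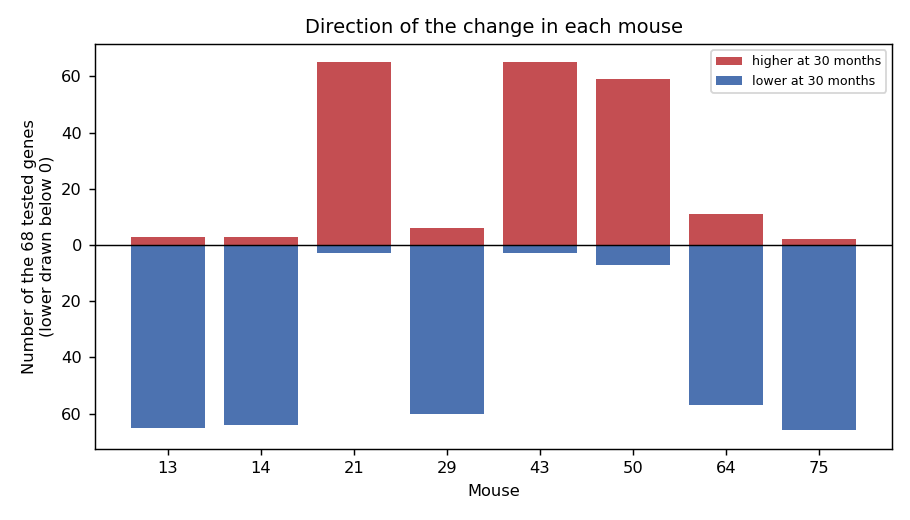
Number of the 68 tested genes with a higher (above 0) or lower (below 0) CPM at 30 months than at 24 months, for each mouse. In 3 mice at least 59 genes were higher, and in 5 mice at least 57 were lower.

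No member was called different between the ages in the fit across all genes. The counts of all 16 libraries were fitted with edgeR's quasi-likelihood method, each animal having its own term, and p-values were adjusted by Benjamini and Hochberg over the 21526 genes tested. Of the 68 members tested, 0 passed an adjusted p of 0.05 (0.0% of all tested genes did), and the smallest adjusted p of a member was 0.234. At an unadjusted p of 0.05, 1 member was higher at 30 months (1.47% of those tested, against 4.86% of all tested genes) and 2 were lower (2.94%, against 7.18%). With DESeq2, 1 of the 68 members passed the adjusted threshold, Krtap3-2, and 228 of the 21526 genes did. The median log2 fold change of the members was -0.72, against 0.01 for all tested genes, and 62 of the 68 values were negative, against 48.3% of all genes. The genes move together across libraries, so the 68 values are not separate observations. The median standard error was 0.94 for members and 0.12 for all genes, and the median dispersion 1.26 against 0.0323.

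The number of members lower at an unadjusted p of 0.05 depended on single animals. Leaving out mouse 21 gave 9 of 67 members (4.66% of all tested genes in that fit), leaving out mouse 43 gave 10 of 68 (8.60%) and leaving out mouse 75 gave 1 of 65 (4.81%). With both 21 and 75 removed it was 6 of 59 (2.72%), an alternative chosen after seeing the data. No member passed the adjusted threshold in any of these fits.

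**Figure D3:**
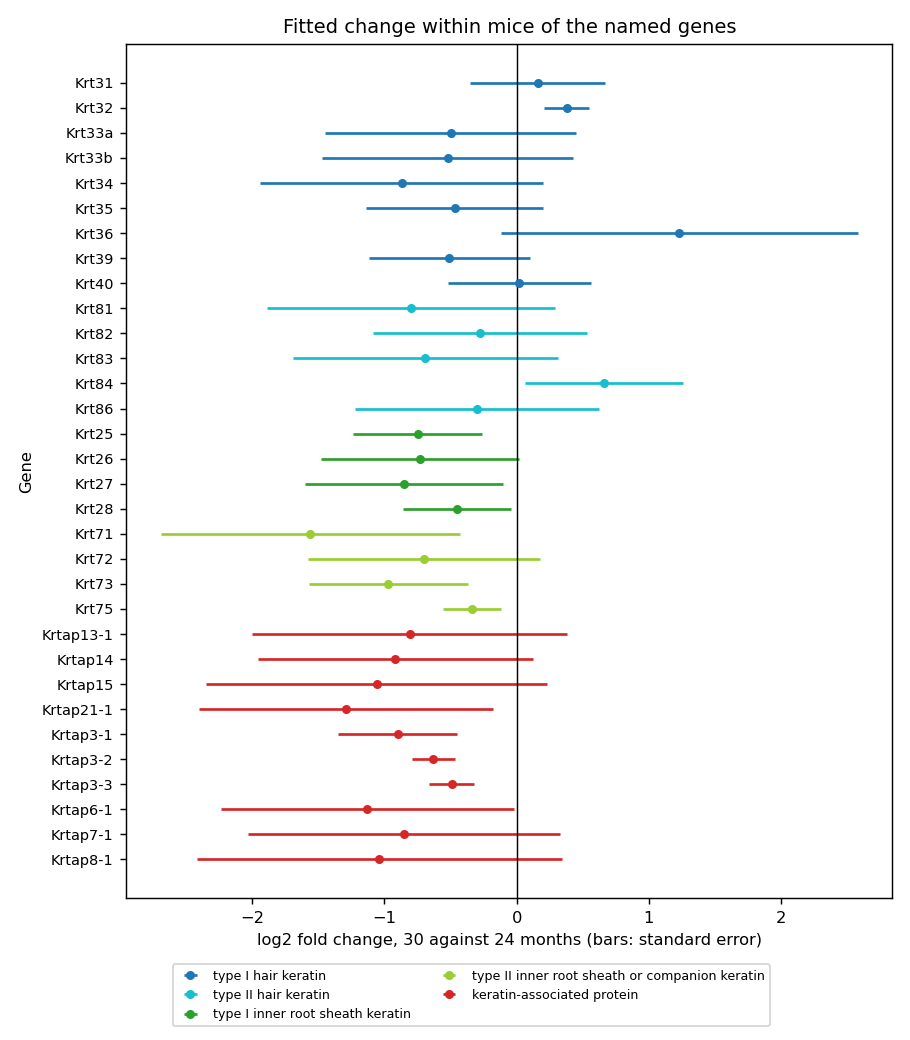
Fitted log2 fold change at 30 against 24 months for the 32 named genes, with bars of 1 standard error. The smallest errors are those of Krtap3-2 (0.16), Krtap3-3 (0.17), Krt32 (0.17) and Krt75 (0.22).

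Keratins of the hair cortex and cuticle were at a low level in most libraries. Krt31, a type I keratin of the cortex, ranged from 0.188 to 10.3 CPM at 24 months (median 0.817) and from 0.225 to 3.16 CPM at 30 months (median 0.967). In 5 of 8 animals the later sample was the higher. Krt35, a type I keratin of matrix and cuticle, ranged from 0.0314 to 5.86 CPM (median 0.761) and from 0.172 to 2.64 CPM (median 0.283), and was lower at 30 months in 6 mice. The age groups overlapped for both, and the log2 fold change was 0.16 ± 0.51 (SE) for Krt31 and -0.47 ± 0.67 for Krt35. The direction for Krt31 turned without mouse 43 (-0.25) or mouse 21 (-0.01) and in the fit with no block for the mouse (-0.40), and leaving out mouse 75 gave 0.52, while Krt35 had -1.04 without mouse 43 and -0.22 without mouse 75. For Krt33a, Krt33b and Krt34, also keratins of the cortex, the log2 fold change was -0.50 ± 0.95, -0.52 ± 0.95 and -0.87 ± 1.07, each with a higher value at 30 months in 3 of 8 mice. Without mouse 13 these values were -0.03, -0.08 and -0.42, and without mouse 43 they were -1.06, -1.09 and -1.49. Their type II partners Krt81, Krt83 and Krt86 had values of -0.80 ± 1.09, -0.69 ± 1 and -0.30 ± 0.92, and Krt82, a keratin of the hair cuticle, -0.28 ± 0.81. Without mouse 13, Krt81 had -0.23, Krt83 -0.16, Krt86 0.21 and Krt82 0.03, and without mouse 75 both Krt86 and Krt82 had 0.20, so the direction of these last 2 turned. Without mouse 43, Krt81 had -1.48, Krt83 -1.31, Krt86 -0.91 and Krt82 -1.0. Krt39 and Krt40 stayed at or under 1.31 CPM in every library, with log2 fold changes of -0.51 and 0.02.

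The hair keratins Krt36 and Krt84 and the Krtap gene Krtap13 had a distinct pattern, with a high value in a single library. In mouse 21 at 30 months, Krt36 had 17.7 CPM (414 reads) and Krt84 19.7 CPM (463 reads). Elsewhere Krt36 reached at most 0.568 CPM and Krt84 1.46 CPM. Krtap13 had 28 reads in that library and 0 in the other 15. Neither keratin shared this peak with mouse 75 at 24 months, where most members were highest. The genes Gm5965, 2310079G19Rik, 2310057N15Rik and 2310034C09Rik on chromosome 16, which are no members by their symbols, had 47, 41, 40 and 12 reads in the same library and at most 1 read in any other. The log2 fold change of Krt36 was 1.23 ± 1.35 with all mice and -0.21 without mouse 21, and that of Krt84 was 0.66 ± 0.60 with all mice and 0.09 without mouse 21.

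Keratins of the inner root sheath differed in how far they varied. With 0.1 CPM added, the highest library exceeded the lowest by 317-fold for Krt71 and by 17.5-fold to 69.9-fold for Krt25 to Krt28, Krt72 and Krt73. The lowest values of Krt26 (0.0627 CPM) and Krt72 (0.0 CPM) lay under the added 0.1 CPM, which limits their ratios. Krt71, a type II keratin of the inner root sheath, ranged from 0.157 to 81.3 CPM at 24 months (median 6.51) and from 0.165 to 15.9 CPM at 30 months (median 4.18). Its log2 fold change was -1.56 ± 1.13, and 3 of 8 mice were higher at 30 months. Krt25, a type I keratin of the same sheath, ranged from 2.95 to 63.5 CPM (median 8.97) and from 2.25 to 18.1 CPM (median 5.15), with a log2 fold change of -0.75 ± 0.49. The age groups overlapped for both genes. Krt27, Krt26 and Krt28, further type I keratins of the sheath, had log2 fold changes of -0.85, -0.73 and -0.45, and the type II keratins Krt73 and Krt72 of -0.97 and -0.70. Leaving out single mice gave -1.34 to -0.48 for Krt27, -1.19 to -0.32 for Krt26 and -0.78 to -0.22 for Krt28. For Krt73 it gave -1.41 to -0.68, for Krt72 -1.29 to -0.21, for Krt71 -2.18 to -1.04 and for Krt25 -1.11 to -0.48.

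**Figure D4:**
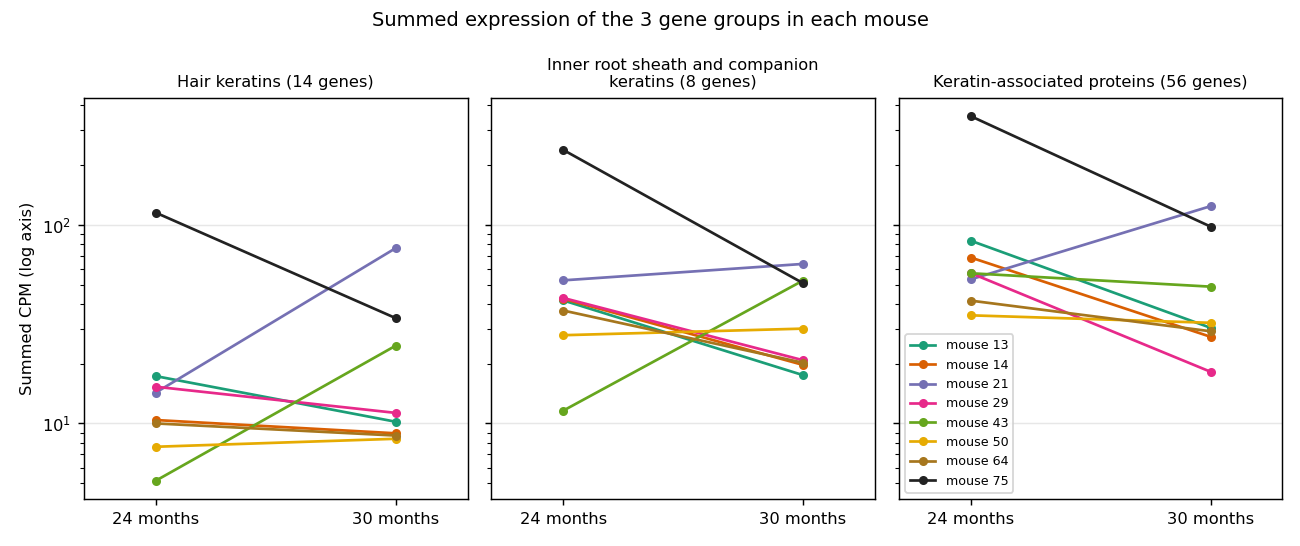
Summed CPM (log axis) of the 14 hair keratins, the 8 inner root sheath and companion keratins and the 56 Krtap genes in each mouse at 24 and 30 months, with lines joining the samples of a mouse. The sums of mouse 75 at 24 months are 115, 238 and 352 CPM.

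As sums, the 8 inner root sheath and companion keratins had medians of 42.0 and 25.4 CPM at 24 and 30 months, with a mean log2 change of -0.49 ± 1.33 (SD, n = 8 mice). The 14 hair keratins had medians of 12.3 and 10.8 CPM and a mean log2 change of 0.18 ± 1.45, which was -0.11 when each gene had equal weight. Its direction turned without mouse 21 (-0.14) or mouse 43 (-0.12), and leaving out mouse 75 gave 0.45. Without Krt36 and Krt84, an alternative added after seeing the data, it was 0.06. The 56 Krtap genes had medians of 57.1 and 31.2 CPM and a mean log2 change of -0.74 ± 1.03. The Krtap sum was the higher at 30 months in 1 mouse and those of the other 2 groups in 3 mice each, but Krtap3-2 and Krtap3-3 held most of it in mice 43 and 50 at 24 months, and the 19 high sulfur genes without them, the ultrahigh sulfur genes and the high glycine-tyrosine genes were each higher in 3 mice. With equal weight for each gene the mean log2 change of the Krtap genes was -0.48. No test was made of these sums.

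Keratin-associated proteins of each class varied widely between libraries. The 15 high glycine-tyrosine genes summed to 0.113 to 96.3 CPM at 24 months and 0.161 to 31.1 CPM at 30 months, a difference of 853-fold between the highest and the lowest library. For the 20 ultrahigh sulfur genes the difference was 433-fold, and for the 21 high sulfur genes it was 10.9-fold. That smaller value came from Krtap3-2 and Krtap3-3, since the other 19 high sulfur genes differed by 162-fold, a sum computed after seeing the data. Krtap8-1 ranged from 0.00 to 25.0 CPM at 24 months (median 2.02) and from 0.00 to 7.67 CPM at 30 months (median 1.19), with overlapping age groups and a log2 fold change of -1.04 ± 1.38. Its log2 fold change was -0.32 without mouse 13 and -1.75 without mouse 21. The further Krtap genes of high abundance, Krtap15, Krtap7-1, Krtap14, Krtap21-1, Krtap13-1 and Krtap6-1, had log2 fold changes between -1.29 and -0.81 with SEs of 1.04 to 1.29, and were higher at 30 months in 3 or 4 of 8 mice. Without mouse 13 their log2 fold changes lay between -0.73 (Krtap21-1) and -0.12 (Krtap13-1), and without mouse 21 between -1.90 (Krtap21-1) and -1.46 (Krtap7-1). Krtap3-1 had a value of -0.90 ± 0.45.

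The genes Krtap3-2, Krtap3-3, Krt32 and Krt75, singled out after their values were seen, were the members with the highest levels in the libraries where most others were near 0. In mouse 43 at 24 months they had 42.4, 12.6, 3.95 and 7.15 CPM, followed by Krt25 with 2.95 CPM and Krtap3-1 with 1.35 CPM. In GRCm38, Krtap3-2 lies at chr11:99555823-99556853, Krtap3-3 lies at chr11:99550130-99550865, Krt32 lies at chr11:100080848-100088226 and Krt75 lies at chr15:101563345-101573904, and all 4 are on the minus strand. Without these 4, the summed CPM of the members ran from 7.18 in mouse 14 at 30 months to 615 in mouse 75 at 24 months, an 85.6-fold range. Krtap3-2 made up 4.52% to 57.5% of the members' CPM of a library.

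Krtap3-2, a high sulfur protein, had 19.6, 25.5, 21.3, 22.1, 42.4, 25.1, 19.5 and 31.9 CPM at 24 months in mice 13, 14, 21, 29, 43, 50, 64 and 75. At 30 months the same mice had 22.2, 19, 14.1, 11.9, 14.5, 14.1, 16.5 and 19.6 CPM. It was lower at 30 months in 7 of 8 mice, mouse 13 being the exception, and the age groups overlapped. The log2 fold change was -0.63 ± 0.16, with an adjusted p of 0.234 by edgeR and of 0.024 by DESeq2, and edgeR gave 0.119 to 0.904 over its other settings. Krtap3-3, a neighbouring gene, had 6.33 to 21 CPM at 24 months (median 8.35) and 4.24 to 11.4 CPM at 30 months (median 6.45). Its later value was the lower in 7 of 8 mice. The log2 fold change was -0.49 ± 0.17, with an adjusted p of 0.325 by edgeR. Of the 50-base windows of the Krtap3-3 transcript, 41.3% also occur in another gene, most often Krtap3-2, so that reads of these genes could be assigned only in part.

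Krt32, a type I keratin of the hair cuticle, had 3.95 to 5.96 CPM at 24 months (median 4.83) and 2.64 to 8.54 CPM at 30 months (median 7.07). The later sample was the higher in 7 of 8 animals, the exception being mouse 50, whose 2.64 CPM was the lowest of all. The log2 fold change was 0.38 ± 0.17 with an adjusted p of 0.412 by edgeR, and 0.55 without mouse 50, with an adjusted p of 0.202. Krt75, a type II keratin of the companion layer between inner and outer root sheath, had 7.15 to 31.8 CPM at 24 months (median 16.1) and 8.31 to 16.9 CPM at 30 months (median 13.9). Its later value was the lower in 6 of 8 mice. The log2 fold change was -0.34 ± 0.22, with an adjusted p of 0.547 by edgeR, against -0.53 without mouse 43 (adjusted p 0.168) and -0.20 without mouse 75 (adjusted p 0.788).

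**Figure D5:**
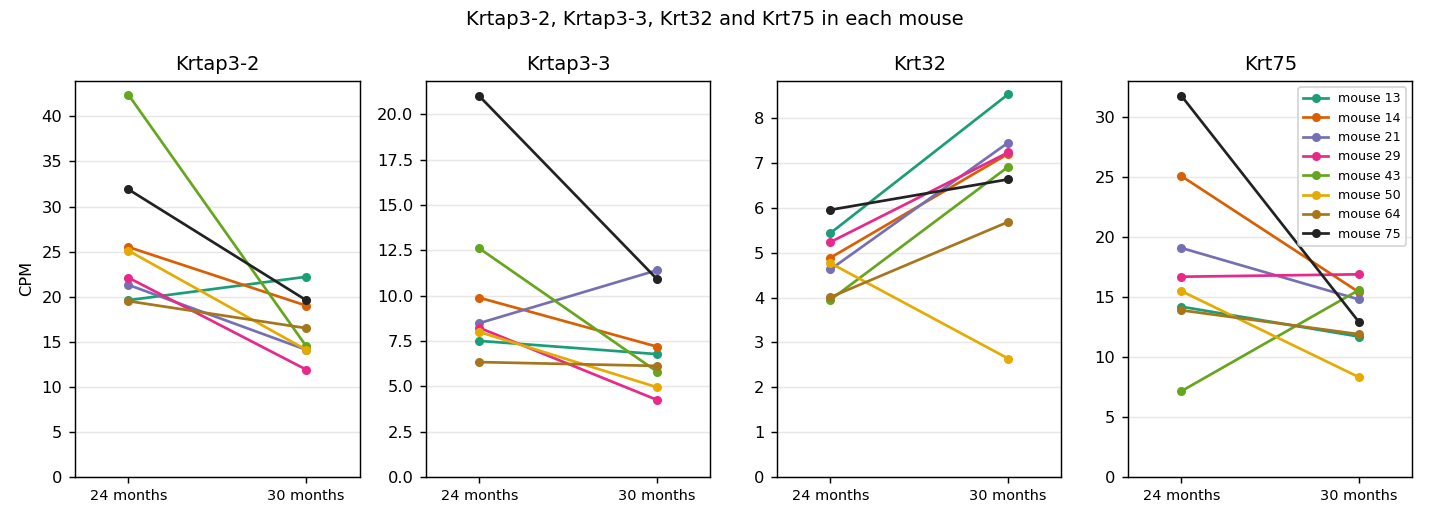
CPM of Krtap3-2, Krtap3-3, Krt32 and Krt75 in each mouse at 24 and 30 months, on linear axes that start at 0. Krtap3-2 and Krtap3-3 are lower at 30 months in 7 of 8 mice and Krt32 is higher in 7 of 8.

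Other genes of hair formation were read from lists that hold the structural genes of hair and root sheath and the regulators of the hair matrix. Of the 9 structural genes, all tested, 0 passed the adjusted threshold by edgeR, and at an unadjusted p of 0.05 Padi1 was higher and S100a3 lower, where 4.86% of all tested genes were higher and 7.18% lower. Tchh, which encodes the trichohyalin of the inner root sheath, shared the peak of the keratins, with 105 CPM in mouse 75 at 24 months. Its next value at that age was 23.9 CPM and its highest at 30 months 33.3 CPM. The log2 fold change of Tchh was -0.1 ± 0.28. Tchhl1, Padi3, S100a3, Dsg4 and Gprc5d were also highest in that library, whereas Tgm3, Padi1 and Mt4 were highest in others. Of the 18 regulators, 17 were tested, 0 passed the adjusted threshold and 4 were lower at an unadjusted p of 0.05, as were 7.18% of all tested genes. These were Foxn1 (-0.33 ± 0.12) and Hoxc13 (-0.29 ± 0.12), transcription factors that activate hair keratin genes, Msx2 (-0.49 ± 0.18) and Wnt10b (-0.57 ± 0.23). Msx2 is a transcription factor of the matrix, and Wnt10b a ligand active at the onset of growth. The median log2 fold change of the 17 tested regulators was -0.08. Values of those past no threshold ran from -0.35 ± 0.2 (Foxq1) to 0.1 ± 0.11 (Sox21). The summed CPM of the 18 regulators ran from 821 to 1420 over the 16 libraries, a sum carried mostly by Hr, Gata3 and Vdr, with means of 409, 131 and 122 CPM, while Wnt10b ranged from 2.14 to 12 CPM and Msx2 from 9.70 to 29.2 CPM.

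Over the 8 mice, the within-mouse change of Krt31 (log2 of CPM plus 0.1) was related to that of 8 other genes by exact two-sided permutation tests over all orders of the mice. The relation to Tchh gave r = 0.95 (exact permutation p = 2.48e-05, adjusted over the 8 relations 0.000198), rho = 1 (exact permutation p = 4.96e-05, adjusted 0.000397), and r = 0.89 with mice 43 and 75, at the ends of the Krt31 range, removed. The relation to Krt71 gave r = 0.86 (exact permutation p = 0.00875, adjusted 0.035), rho = 0.76 (exact permutation p = 0.0368, adjusted 0.147), and r = 0.79 with both removed, but the adjusted p was above 0.05 when any one of mice 14, 21, 43 or 64 was left out, with r = 0.63 without mouse 43. The relation to Krt75 gave r = 0.83 (exact permutation p = 0.0162, adjusted 0.0433) and rho = 0.52 (exact permutation p = 0.197, adjusted 0.393), and rested on mice 43 and 75, since r was 0.06 without them. For Hoxc13, Foxn1, Tyrp1, Krt15 and Krt10, r lay between -0.04 and 0.54 and the smallest adjusted p of r was 0.351 by exact permutation. Without mouse 43, r was -0.31 for Hoxc13, -0.28 for Foxn1, 0.05 for Tyrp1, -0.56 for Krt15 and -0.60 for Krt10. Leaving out other mice gave up to 0.69 for Hoxc13 (without mouse 21), and 0.47 for Foxn1 and 0.67 for Tyrp1 (without mouse 29). For Krt10 it gave up to 0.49 (without mouse 75) and for Krt15 up to 0.12 (without mouse 13).

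Markers of other cells in the clip also moved between libraries. The 8 skeletal muscle genes, none of which was at 0 in any library, summed to 820 to 10600 CPM at 24 months and 1160 to 8270 CPM at 30 months, and 0 of 8 passed the unadjusted threshold. In mouse 43 at 24 months, where the members other than the 4 singled out summed to 7.66 CPM, muscle genes summed to 10600 CPM. At 30 months the values were 8.78 and 8270 CPM in mouse 13, 7.18 and 4320 in mouse 14, and 9.99 and 2030 in mouse 29. In mouse 21 at 30 months both sums were high, with 215 and 5610 CPM. In mouse 75 they were 615 and 1780 CPM at 24 months and 132 and 1980 CPM at 30 months. The library of mouse 29 at 30 months had 44.4 CPM over the 10 genes of cell division, against 189 to 346 in the other libraries, and 28.3 CPM over the 8 pigment cell genes, against 65.1 to 167. The pigment cell genes summed to 80.4 to 167 CPM at 24 months and 28.3 to 106 CPM at 30 months, with the later sum higher in 1 mouse. At an unadjusted p of 0.05, 2 of 8 genes were lower, against 7.18% of all tested genes. The 8 cartilage genes summed to 148 to 233 and 121 to 172 CPM, likewise higher in 1 mouse, and 4 of 7 tested were lower at that threshold, against 7.18% of all tested genes. The cartilage gene Matn1 was not tested and had no read in most libraries. The 6 fat cell genes summed to 116 to 333 and 67.7 to 823 CPM, higher at 30 months in 7 mice and highest in mouse 29. Fabp4 held 528 CPM of that highest sum, while Lep was at its lowest there, with 1.65 CPM. Lep was higher at 30 months in 3 mice and the other fat cell genes in 5 to 7. Of the 6, 0 passed the unadjusted threshold in either direction. The 10 dermal papilla genes summed to 129 to 271 CPM at 24 months and 81.8 to 232 CPM at 30 months, with the later sum higher in 2 mice. Of 9 tested, 2 (Alx4 and Wif1) were lower at the unadjusted threshold, against 7.18% of all tested genes. The part of these cells in the differences of the hair genes was not tested.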

How the data were processed

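RNA libraries (TruSeq RNA v2) of ear clips were sequenced by the study, and per the labels reads were processed with CASAVA 1.8.4, aligned with TopHat2 2.1.0 to mm10 and counted with HTSeq 0.6.1p1. The authors deposited raw counts per gene, without normalization, for 16 libraries kept apart. The kit does not mark strand. The 5 lines that name no gene held 18.7% to 21.1% of reads and were left out. Symbols and positions came from GENCODE M21 (GRCm38). Reads that match near-identical copies may be lost or split.

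The test was edgeR 4.0.16 under R 4.3.3 (quasi-likelihood, two-sided, after filterByExpr and TMM), blocked by mouse. The pairing comes from the animals, and the deviations of a mouse's libraries from the age means correlated at -0.43 to 0.31 over tested genes. Standard errors were derived from the F statistic. The script was tested on simulated data. The 10 members that did not pass the filter are Krtap4-13, Krtap6-3, Krtap9-5, Krtap10-4, Krtap13, Krtap20-2, Krtap27-1, Krtap29-1, Krtap31-1 and Krtap31-2. Genes named are all tested keratins, the 10 Krtap genes of highest mean CPM, up to 3 further ones per direction at an unadjusted p of 0.05, and genes of the lists. Outside this rule, Krtap4-1 was named for its promoter sequence. Krtap13 and the genes named beside it that are no members were named for a peak in a single library. Alternatives were DESeq2 1.42.0, its size factors, no filter, no block, continuous age, scaling without the members, another pseudocount, and each mouse left out. The members and lists were chosen with earlier results of these data known.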

Additional observations from a re-analysis of the deposited data

Results flagged for a closer look

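The 11 values that stood apart from the other 7 of their age group, out of 72 sets of 8 examined on a log scale, are given here, and chance alone sets about 1 in 20 sets apart. The sums and genes are not independent of each other. In mouse 75 at 24 months, the sum of all members was 706 CPM, that of the hair keratins 115 and that of the Krtap genes 352, against 142, 17.3 and 83.1 CPM in the next library. In the same library Krt31 had 10.3 CPM against 1.35, Krt72 4.05 against 0.531, Krt39 1.31 against 0.249, Krt40 1.31 against 0.283 and Krtap3-1 13.2 against 1.89. In mouse 21 at 30 months, Krt36 had 17.7 CPM against 0.284 and Krt84 19.7 against 1.46. In mouse 50 at 30 months, Krt32 was the lowest, at 2.64 CPM against 5.69 CPM in the next.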

How the results depend on the processing

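The count of members past an adjusted p of 0.05 was 0 in every edgeR fit. DESeq2 called 1 of 68 lower (Krtap3-2, log2 fold change -0.62), beside 228 of 21526 genes in either direction. At an unadjusted p of 0.05, 1 member was higher in the fit with all mice (4.86% of all tested genes). The number higher was 2 without a filter on low counts (3.47%) and 3 with no replicate block (7.93%). It was 0 with age as a continuous covariate (4.36%) and 0 without mice 21 and 75 (2.52%). The number lower was 2 in the fit with all mice (7.18%) and 7 with DESeq2 (6.01%). It was 3 without a filter on low counts (4.83%), 1 with no replicate block (7.59%) and 6 without mice 21 and 75 (2.72%). Leaving out each mouse gave 0 to 1 higher (3.9% to 8.98% of all tested genes) and 1 to 10 lower (4.66% to 8.6%). The median log2 fold change of the members then lay between -1.23 and -0.32. DESeq2 gave a median of -0.98 against -0.72, and more negative log2 fold changes for several members, such as Krt33b (-1.17 against -0.52), Krt81 (-1.57 against -0.80), Krt83 (-1.44 against -0.69) and Krtap13-1 (-1.90 against -0.81). The mean log2 change of the sums then ran from -0.77 to -0.33 for all members, -0.14 to 0.45 for hair keratins, -0.87 to -0.25 for inner root sheath and companion keratins and -1.02 to -0.58 for Krtap genes. The relation of Krt31 to Krt71 had r from 0.63 to 0.93 and that to Krt75 from 0.52 to 0.91 as mice were left out, losing the adjusted threshold without mice 14, 21, 43 or 64 for Krt71 and without those, 29 or 75 for Krt75. With a pseudocount of 1 CPM the relation to Krt75 was 0.83 and no longer passed. The relation to Tchh stayed between 0.88 and 0.97. Of 473 alternative log2 fold changes of 32 named members, 15 had another sign, in 6 members (Krt31, Krt36, Krt40, Krt82, Krt84 and Krt86), none past the adjusted threshold. The cause of these shifts was not tested. Depth limits the Krtap genes of lowest level, 10 of which had too few reads to be tested.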
